A study of Sus scrofa with 6 samples.

Results

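A set of 6 microRNAs (miRNAs) known from striated muscle was followed in skin of Xiang pigs: ssc-miR-1, ssc-miR-133a-3p, ssc-miR-133b, ssc-miR-206, ssc-miR-378 and ssc-miR-499-5p. These 6 were chosen by name, as miRNAs that could report muscle tissue in a skin sample, from 898 listed miRNAs, of which 280 carry a miRBase-style name. The study sequenced small RNA of skin tissue from pigs of the Xiang strain, with 3 libraries of white skin (S02, S06 and S07) and 3 of black skin (S03, S04 and S05), to find miRNAs that bear on melanin formation. All skin was treated alike: it was disinfected with alcohol, freed of hair and kept in RNAwait at low temperature. The labels give no animal, age, sex, body site, depth of the excised skin or batch, so the p-values below reflect only how far these samples vary, which could be technical variation. Values are RPM, reads of a miRNA scaled so that all listed miRNAs of a library sum to 1e+06, and the libraries held 6454685 to 10165949 reads.

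Striated muscle makes a small group of miRNAs, often called myomiRs, under the myogenic transcription factors that also drive its contractile genes. miR-1 promotes muscle differentiation and is made together with miR-133a, which acts on myoblast growth, from a shared primary transcript. miR-206 belongs to the miR-1 family, shares its seed, and is made together with miR-133b in skeletal muscle but hardly in heart. miR-499 is carried in an intron of a myosin gene and is linked to the slow fibre programme. miR-378 lies in PPARGC1B, a coactivator of mitochondrial genes, and is made in fat and other tissues as well as in muscle. Mammalian skin holds smooth muscle in vessel walls and hair follicles, and striated muscle in the sheet beneath it.

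Precursors of all 6 were placed with the RefSeq annotation of Sscrofa11.1, and 2 of the 6 have a second copy. MIR1 is on chromosome 17 at 61894036 to 61894143, and MIR133A-1 lies 10637 bases from it at 61904781 to 61904883, both outside annotated genes. A second copy, MIR133A-2, is on chromosome 6 at 106998899 to 106998971, within MIB1 and a lncRNA gene. MIR206 (45976293 to 45976372) and MIR133B (45980138 to 45980217) lie 3765 bases apart on chromosome 7, between PKHD1 and IL17A. MIR499 is on chromosome 17 at 38374118 to 38374197, within the myosin gene MYH7B. MIR378-1 is on chromosome 2 at 150825865 to 150825944, within PPARGC1B, and MIR378-2 on chromosome 12 at 36947443 to 36947510, within BCAS3. Mature miR-133a-3p and miR-133b are near-identical, so the division of reads between them is uncertain.

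All 6 miRNAs were found in every library, and together they made up a small part of it. In white skin their summed level was 1019 (S02), 2375 (S06) and 2814 RPM (S07), and in black skin 1702 (S03), 1325 (S04) and 1904 RPM (S05). The black libraries thus lay within the range of the white ones, and the lowest and the highest sums were both from white skin. As a share of the reads, the sum came to 0.207 ± 0.0936% for white skin and to 0.164 ± 0.0294% for black skin (SD, n = 3). ssc-miR-1 gave 42.8 to 62.4% of the sum in white and 51.8 to 70.0% in black libraries, so the sum mainly followed this miRNA. In bulk tissue, fewer muscle cells and less of a miRNA per muscle cell cannot be told apart.

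**Figure D1:**
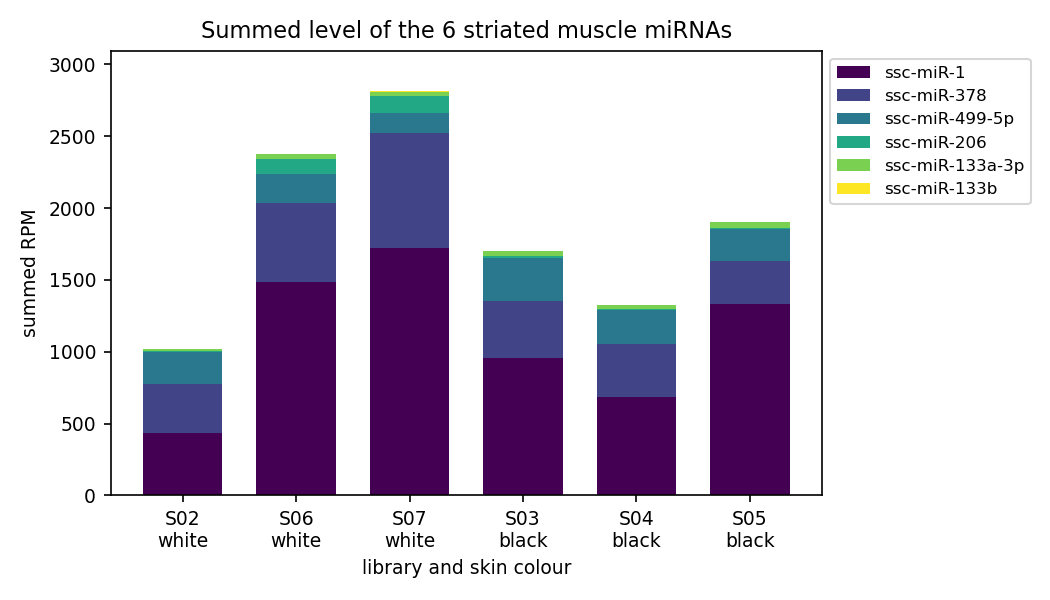
Summed RPM of the 6 miRNAs (vertical axis) in each library (horizontal axis, with skin colour), stacked by miRNA. The white library S02 has the lowest sum (1019 RPM) and the white library S07 the highest (2814 RPM), with the black libraries at 1325 to 1904 RPM between them.

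The order of the levels was nearly the same in every library. ssc-miR-1 was the most abundant, then ssc-miR-378, then ssc-miR-499-5p, and ssc-miR-133b was the least abundant in all 6. Between ssc-miR-1 and ssc-miR-378 the gap was 1.28-fold in S02 and 4.43-fold in S05, and over the white libraries the levels of the pair overlapped. The order of ssc-miR-206 and ssc-miR-133a-3p differed between the groups. ssc-miR-206 was 1.16, 3.44 and 3.38 times as high as ssc-miR-133a-3p in S02, S06 and S07, but 0.440, 0.176 and 0.203 times as high in S03, S04 and S05. S06 and S07 thus had more ssc-miR-206 and each black library more ssc-miR-133a-3p. In S02 the pair was within counting error, at 92 and 79 reads, with intervals of 10.3 to 15.5 and 8.68 to 13.5 RPM (95%, Wilson). Levels of different miRNAs in such libraries also depend on how well each is ligated to the adapters, which a comparison of libraries within 1 miRNA does not.

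None of the 6 passed the test between black and white skin. The test was limma on log2(RPM + 1) over the 454 miRNAs with enough reads, which included all 6, with Benjamini-Hochberg adjustment and a threshold of 0.05. Of all tested miRNAs 32 (7.05%) were called, 18 (3.96%) higher and 14 (3.08%) lower in black skin. At an unadjusted p under 0.05 there were 116 of the 454 tested, and 1 of the 6, ssc-miR-206. The median difference, black minus white, was 0.08 over the 6 and 0.00 over all tested, and 3 of the 6 values were above 0. Adjusted p-values below are from this fit unless another is named.

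ssc-miR-206, the skeletal muscle member of the miR-1 family, differed most. In white skin it stood at 12.6 (S02), 106 (S06) and 115 RPM (S07), and in black skin at 14.6 (S03), 4.77 (S04) and 8.21 RPM (S05). S06 and S07 were far above all others, while S02 lay within the black range. The counting intervals of S02 (10.3 to 15.5 RPM) and S03 (12.1 to 17.5 RPM) overlapped (95%, Wilson, counting error only). The white mean was 77.8 ± 56.7 RPM and the black mean 9.19 ± 4.98 RPM (SD, n = 3), a ratio of 8.47. The log2 difference of -2.56 (standard error 0.76, 95% interval -4.28 to -0.83) missed the threshold (limma, adjusted p = 0.0804). Among the 454 tested miRNAs it had the third largest standard deviation of log2(RPM + 1) over the 6 libraries, 1.84 against a median of 0.40.

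The call of ssc-miR-206 turned on 1 library and on the fit. Without S02 the difference was -3.57 and passed (limma, adjusted p = 0.00227), in a fit that called 8.15% of the tested miRNAs. Without any other single library it did not pass, with adjusted p of 0.105 to 0.239. It passed with edgeR on the recovered reads (-3.08, adjusted p = 0.0495), which called 6.61% of miRNAs, and with DESeq2 (-3.12, adjusted p = 0.0184), which called 11.5%. It also passed with predicted identifiers left out before scaling (-2.66, adjusted p = 0.0402, 14.5% called). Over the 242 miRNAs tested there, that scaling moved the median difference from -0.05 to -0.14, and its calls were 16 higher and 19 lower in black skin. With limma-voom it did not pass (-2.70, adjusted p = 0.121). In all of these fits the value was lower in black skin.

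ssc-miR-1, which promotes differentiation of heart and skeletal muscle, measured 436, 1483 and 1724 RPM in S02, S06 and S07, against 957, 687 and 1333 RPM in S03, S04 and S05. All 3 black libraries lay between the lowest and the next white library. The means were 1214 ± 685 and 992 ± 325 RPM (SD, n = 3), with a difference of -0.12 (standard error 0.48, limma, adjusted p = 0.911). Its 95% interval was -1.20 to 0.97. Without S02 the difference was -0.74 (adjusted p = 0.128), and without S07 it was 0.25 (adjusted p = 0.811).

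ssc-miR-133a-3p, made with miR-1, measured 10.8, 30.8 and 34.0 RPM in S02, S06 and S07, against 33.2, 27.1 and 40.5 RPM in S03, S04 and S05. S02 was again the lowest library, and the other 5 lay close together. The means were 25.2 ± 12.6 and 33.6 ± 6.68 RPM (SD, n = 3), with a difference of 0.53 (95% interval -0.42 to 1.49, limma, adjusted p = 0.502). Without S02 this difference was 0.03, and without S07 it was 0.82.

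ssc-miR-133b, the partner of miR-206, was scarce, at 0.685, 2.01 and 2.46 RPM in S02, S06 and S07, against 1.55, 2.18 and 2.89 RPM in S03, S04 and S05. These values rest on 5 to 25 reads a library, and the counting interval in S02 was 0.293 to 1.60 RPM. The groups overlapped, with a difference of 0.28 (95% interval -0.47 to 1.03, limma, adjusted p = 0.677), a scale that understates changes of so scarce a miRNA. S02 was the lowest library for ssc-miR-1, ssc-miR-133a-3p and ssc-miR-133b, that is for 3 of the 6.

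ssc-miR-378, linked to energy metabolism, measured 341, 550 and 797 RPM in S02, S06 and S07, against 398, 366 and 301 RPM in S03, S04 and S05. The black libraries were close to S02, and S06 and S07 were above them all. The means were 563 ± 228 and 355 ± 49.4 RPM (SD, n = 3), with a difference of -0.59 (95% interval -1.26 to 0.08, limma, adjusted p = 0.255). Without S02 it was -0.91 (adjusted p = 0.0575) and without S07 it was -0.30 (adjusted p = 0.557).

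ssc-miR-499-5p, from the myosin gene MYH7B, varied least, at 218, 204 and 141 RPM in S02, S06 and S07, against 298, 238 and 218 RPM in S03, S04 and S05. It alone of the 6 showed groups that did not overlap, which 27.3% of all tested miRNAs did. The gap was narrower than counting error, with intervals of 207 to 228 RPM in S02 and 209 to 228 RPM in S05. The means were 187 ± 41.0 and 251 ± 41.5 RPM (SD, n = 3), with a difference of 0.43 (95% interval -0.11 to 0.97, limma, adjusted p = 0.301), or 0.24 without S07. S07, the highest library for ssc-miR-1, ssc-miR-206 and ssc-miR-378, was the lowest for ssc-miR-499-5p.

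**Figure D2:**
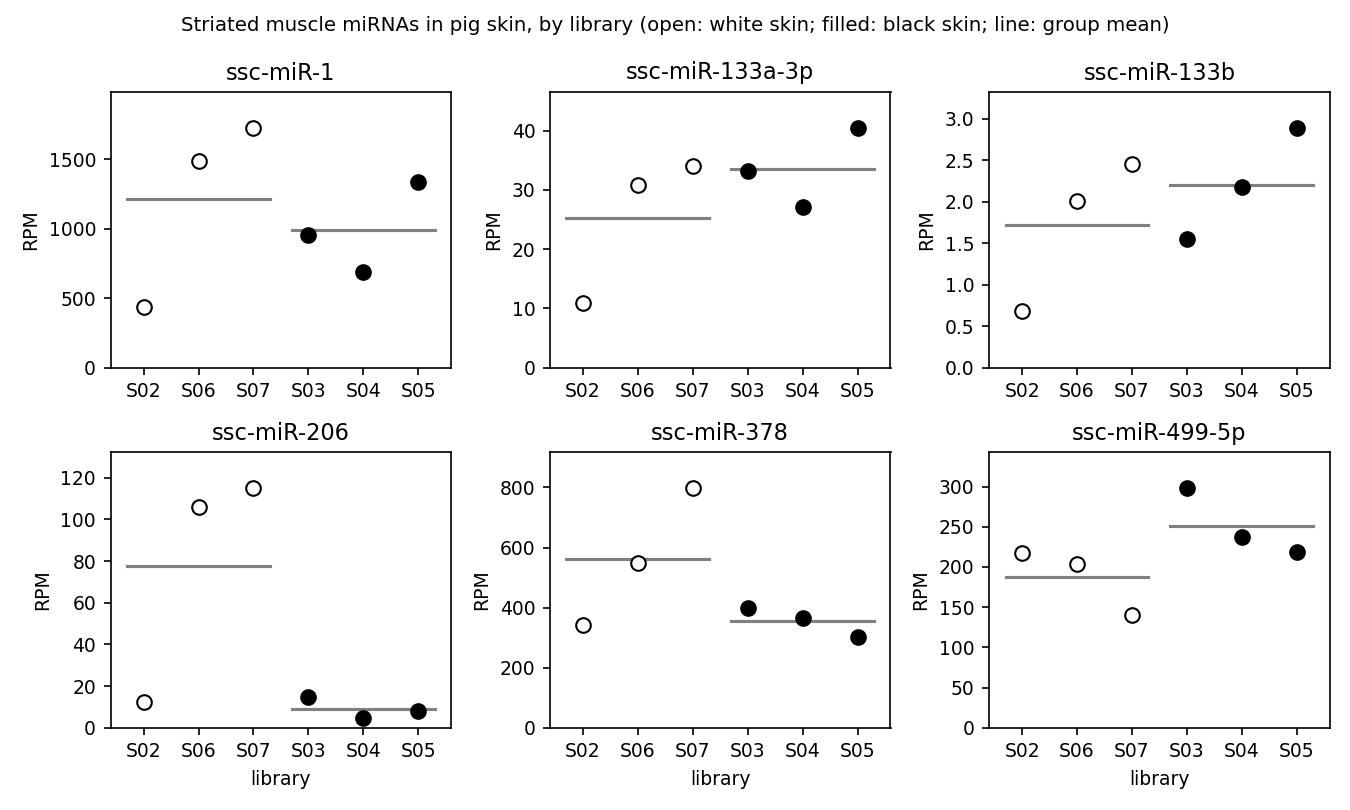
RPM (vertical axes, each from 0) of each miRNA in the 6 libraries (horizontal axis), white skin open and black skin filled, with a line at each group mean. ssc-miR-206 stands at 106 and 115 RPM in S06 and S07 and at most 14.6 RPM in the other 4 libraries, and S02 is lowest for ssc-miR-1, ssc-miR-133a-3p and ssc-miR-133b.

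**Figure D3:**
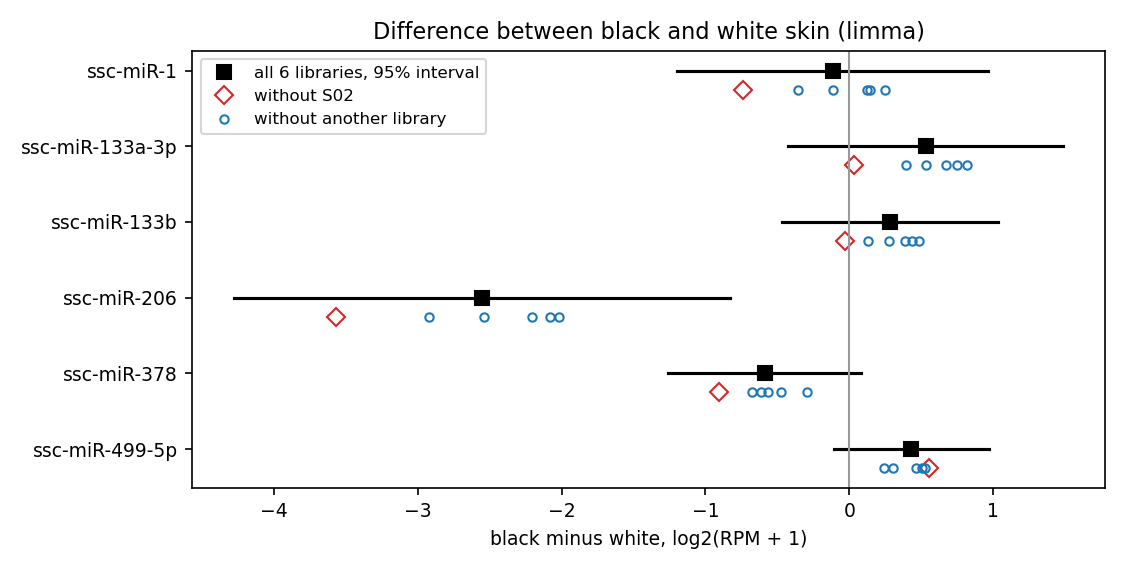
Difference of each miRNA between black and white skin on the log2(RPM + 1) scale (horizontal axis), as squares with 95% intervals from limma, and the same without 1 library at a time as open symbols. The interval of ssc-miR-206 (-4.28 to -0.83) is the 1 that leaves out 0, and leaving out S02 (diamonds) gives its lowest value, -3.57.

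Ratios between members within a library do not depend on how the library was scaled, apart from the pseudocount of 1. Of 5 ratios compared, 3 had no overlap between the groups. Among single tested miRNAs 27.3% had none, and the share over other pairs of miRNAs was not computed. The 3 are not separate results, since ssc-miR-206 and ssc-miR-1 each stand in more than 1 of them. With 3 libraries against 3, the smallest p of the two-sided exact permutation test is 0.1. Each of the 3 ratios reached it, which is 0.167 after Benjamini-Hochberg adjustment over the 5, so none passed.

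The ratio of ssc-miR-206 to ssc-miR-1 was higher in all 3 white libraries. ssc-miR-206 stood at 2.89, 7.15 and 6.66% of ssc-miR-1 in S02, S06 and S07, and at 1.52, 0.695 and 0.616% in S03, S04 and S05. S02, which lay among the black libraries by its ssc-miR-206 level, was above all of them by this ratio. The mean log2 ratio was -4.23 ± 0.67 (white) and -6.67 ± 0.65 (black; SD, n = 3), a difference of -2.44 (exact permutation p = 0.1, adjusted 0.167). Without S02 it was -2.83, and over all single libraries left out it was -2.83 to -2.19.

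The level of ssc-miR-1 was also entered in the limma fit as a covariate beside skin colour, so that miRNAs were compared between the groups at equal ssc-miR-1. In this fit 23 of the 454 tested miRNAs (5.07%) were called (limma, adjusted p under 0.05), 20 of them among the 32 calls without the covariate. ssc-miR-206 then had a difference of -2.39 between black and white skin (adjusted p = 0.0289). ssc-miR-133a-3p gave 0.62 (adjusted p = 0.113), ssc-miR-133b 0.34 (0.402), ssc-miR-378 -0.54 (0.205) and ssc-miR-499-5p 0.41 (0.244). The fit leaves 3 residual degrees of freedom for each miRNA, and ssc-miR-1 was measured in the same libraries. Its use for the members was chosen after the data were seen, and without the covariate ssc-miR-206 missed the threshold (limma, adjusted p = 0.0804).

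As against ssc-miR-1, ssc-miR-206 was higher in every white library against its neighbour on chromosome 7. ssc-miR-206 was 18.4, 52.6 and 46.7 times as high as ssc-miR-133b in S02, S06 and S07, and 9.42, 2.19 and 2.84 times as high in S03, S04 and S05. As counted, the 2 miRNAs of 1 locus varied by unequal amounts over the libraries. The mean log2 ratio was 4.41 ± 1.21 (white) and 1.57 ± 0.92 (black; SD, n = 3), a difference of -2.84 (exact permutation p = 0.1, adjusted 0.167). In S02 the ratio rests on 5 reads of ssc-miR-133b, and in no library on more than 25. The division of these reads from those of ssc-miR-133a-3p is uncertain, and its part in this ratio was not tested.

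ssc-miR-133a-3p stood at 2.48, 2.08 and 1.97% of ssc-miR-1 in S02, S06 and S07, and at 3.47, 3.95 and 3.04% in S03, S04 and S05. This was the narrowest of the 5 ratios, with 1.01 on the log2 scale between the highest and the lowest library, although ssc-miR-1 itself varied 3.96-fold. The mean log2 ratio was -5.46 ± 0.22 (white) and -4.81 ± 0.20 (black; SD, n = 3), a difference of 0.65 (exact permutation p = 0.1, adjusted 0.167), or 1.57-fold. With a pseudocount of 10 the difference was 0.49 (exact permutation p = 0.3).

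The other 2 ratios overlapped between the groups. ssc-miR-499-5p stood at 49.9, 13.8 and 8.16% of ssc-miR-1 in S02, S06 and S07 and at 31.1, 34.6 and 16.4% in S03, S04 and S05 (log2 difference 0.55, exact permutation p = 0.6). Without S07 this difference was -0.01, and without S02 it was 1.29. ssc-miR-378 stood at 78.3, 37.1 and 46.2% of ssc-miR-1 in S02, S06 and S07 and at 41.6, 53.3 and 22.6% in S03, S04 and S05 (log2 difference -0.47, exact permutation p = 0.5). This difference was -0.12 without S05, -0.17 without S02 and -0.74 without S04. S02 was the highest of all libraries in both.

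**Figure D4:**
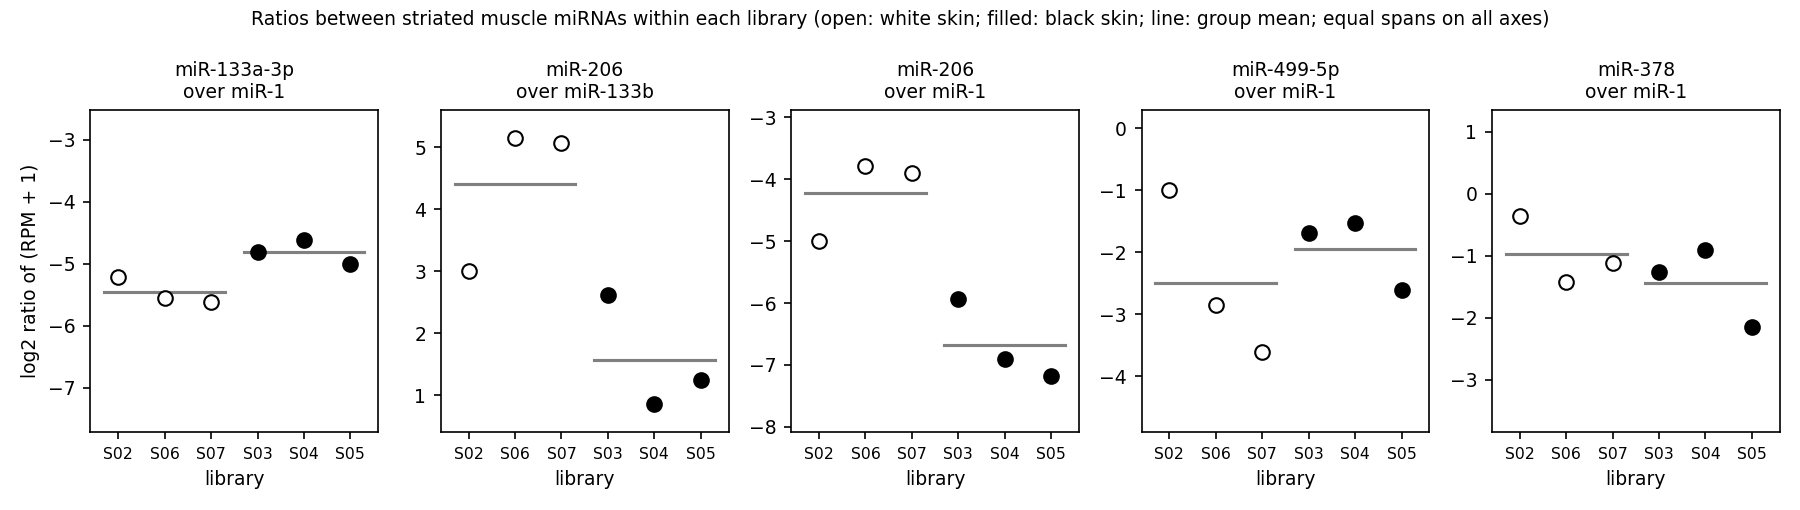
Log2 ratio of (RPM + 1) between pairs of striated muscle miRNAs (vertical axes, with equal spans) in each library (horizontal axis), white skin open and black skin filled, with a line at each group mean. The ratios of ssc-miR-206 to ssc-miR-1 and to ssc-miR-133b are higher in every white library, and that of ssc-miR-133a-3p to ssc-miR-1 is higher in every black library.

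The 6 did not vary as 1 set. Likeness was measured as the root mean square difference, over the 6 libraries, between the log2(RPM + 1) values of 2 miRNAs, each centred on its own mean, so that 0 is the same pattern. Of the 453 other tested miRNAs, ssc-miR-133a-3p was the fourth nearest to ssc-miR-1 (0.37) and ssc-miR-133b the tenth (0.44), against a median of 0.80. ssc-miR-378 was at 0.54, ssc-miR-499-5p at 0.89 and ssc-miR-206 at 1.33, the last 2 farther than the median. The values are centred but not scaled, so a widely varying miRNA such as ssc-miR-206 (standard deviation 1.84) lies far from most others. Seen from ssc-miR-206, ssc-miR-378 ranked 17 (1.27) and ssc-miR-1 ranked 26 (1.33) of the 453, both nearer than the median of 1.76. Of all tested miRNAs, ssc-miR-133b was the nearest to ssc-miR-133a-3p (0.28). Their reads can be exchanged, and the part of this in their likeness was not tested. With 6 libraries that share depth and composition, these values are a description.

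Outside the 6, the named miRNAs nearest to ssc-miR-1 were ssc-miR-425-5p (0.23), ssc-miR-2320-3p (0.38) and ssc-miR-34a (0.39). ssc-miR-425-5p, nearest of all tested, measured 165, 424 and 442 RPM in S02, S06 and S07, against 239, 169 and 311 RPM in S03, S04 and S05. It had the low S02 and high S06 and S07 of ssc-miR-1. Nearest to ssc-miR-206 were ssc-miR-221-3p (1.05), ssc-miR-196a (1.12) and ssc-miR-615 (1.13), against a median of 1.76. These 3 were called lower in black skin (limma, adjusted p = 0.0318, 0.000371 and 0.0324), as were 3.08% of all tested miRNAs. They were picked for likeness to ssc-miR-206, so their direction follows in part from that choice. ssc-miR-221-3p, the miRNA the series is named for, measured 615, 1147 and 974 RPM in S02, S06 and S07, against 424, 334 and 363 RPM in S03, S04 and S05. Its S02 level was the lowest of the white libraries, as for ssc-miR-206, but lay above all black ones. The labels give no body site, and the part of body site in these group differences was not tested.

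Further muscle products gave few values. Of 8 names in a list of other striated muscle miRNAs, ssc-miR-133a-5p, ssc-miR-378b-3p and ssc-miR-486 were listed, and 5, among them miR-208a and miR-208b of the heart and slow muscle myosin genes, were not analysed here. None was called. ssc-miR-133a-5p, the passenger arm, had 2 to 11 reads a library and was not tested. ssc-miR-378b-3p measured 27.7, 27.3 and 37.7 RPM in S02, S06 and S07, against 45.4, 44.9 and 37.1 RPM in S03, S04 and S05, without the high S06 and S07 of ssc-miR-378 (difference 0.46, limma, adjusted p = 0.314). ssc-miR-486, made in muscle and red cells, measured 37.4, 34.4 and 52.0 RPM in S02, S06 and S07, against 7.49, 7.64 and 28.9 RPM in S03, S04 and S05, with no overlap (difference -1.68, limma, adjusted p = 0.0743). It passed without S05 (-2.28, adjusted p = 0.00933), with DESeq2 (-1.57, adjusted p = 0.0106) and with predicted identifiers left out before scaling (-1.78, adjusted p = 0.0341). The erythroid ssc-miR-451 measured 3948, 1688 and 4855 RPM in the same white and 981, 1260 and 4248 RPM in the same black libraries, and its part in the ssc-miR-486 values was not tested.

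Of 21 tested products of miRNAs linked to myogenesis, which many cell types make, the median difference was 0.10. In black skin 2 rose and 3 fell, beside 3.96% and 3.08% of all tested miRNAs. Those that rose were ssc-miR-24-2-5p (0.86, limma, adjusted p = 0.0423) and ssc-miR-27a (0.92, adjusted p = 0.0324), and those that fell were ssc-miR-181b, ssc-miR-214 and ssc-miR-221-3p (-1.09, -0.88 and -1.24). The most abundant, ssc-miR-27b-3p, gave 0.10 (adjusted p = 0.754). Without S02, 6 were called, in a fit that called 8.15% of the tested miRNAs, and ssc-miR-24-2-5p was no longer among them. With all libraries the groups did not overlap for 13 of the 21, against 27.3% of all tested miRNAs. Both arms of some hairpins are in this list. The summed level was 129121 and 134226 RPM in S06 and S07 and 152340 to 173830 RPM in the other libraries. This sum mainly follows ssc-miR-27b-3p and ssc-miR-26a. Of these, ssc-miR-26a measured 26683 and 29775 RPM in S06 and S07, and 45513 to 48638 RPM in the other libraries. Some members were instead highest in S06 and S07, among them ssc-miR-181b (197 and 241 RPM) and ssc-miR-222 (619 and 430 RPM). The low sums of S06 and S07 thus do not hold for the list member by member.

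The summed level of the 6, led by ssc-miR-1, was higher in S06 and S07 than in every other library. By their sums, 0 of 7 lists for other cell types had both S06 and S07 above all other libraries. This pattern was picked from the sum of the 6, and its share over all tested miRNAs was not computed. The count thus does not mark it as particular to muscle. The other striated muscle products also lacked it, with sums of 65.3, 62.1 and 90.8 RPM in S02, S06 and S07. In S03, S04 and S05 they summed to 53.4, 52.9 and 67.1 RPM. A sum mainly follows its most abundant members. Within the lists for other cell types, S06 and S07 were highest for the epithelial ssc-miR-429 (548 and 463 RPM) and the fibroblast ssc-miR-214 (487 and 590 RPM). Of the 6, ssc-miR-1, ssc-miR-206 and ssc-miR-378 were highest in S06 and S07, and ssc-miR-133a-3p, ssc-miR-133b and ssc-miR-499-5p were not. Smooth muscle and vessel wall miRNAs (both arms of miR-143, miR-145 and miR-126) summed to 44365 to 58091 RPM in white skin but 96227 to 119952 RPM in black. Beside 3.96% of all tested miRNAs, 3 of 6 rose here. They were ssc-miR-143-3p (1.29, limma, adjusted p = 0.00314), ssc-miR-126-3p (0.71, adjusted p = 0.0423) and ssc-miR-126-5p (0.89, adjusted p = 0.0423). Without S02, ssc-miR-126-3p was no longer called and ssc-miR-145-3p was. The striated muscle sum overlapped between the groups. The epithelial list, led by the keratinocyte miRNA ssc-miR-205 at 11483 to 22514 RPM, summed to 23475 to 34650 RPM (white) and 18739 to 25754 RPM (black), with none of 5 called. Its names miR-203, miR-141, miR-200a, miR-200b and miR-200c were not analysed here. The fibroblast list, led by ssc-miR-199a-3p (-0.50, adjusted p = 0.134), summed to 12358 to 15862 RPM (white) and 9252 to 11784 RPM (black), with ssc-miR-214 called of 3. Over all tested miRNAs 7.05% were called in either direction.

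Lists of blood, fat and pigment cells completed the comparison, again beside 7.05% of all tested miRNAs called. The erythroid list, led by ssc-miR-451, summed to 1723 to 4914 RPM (white) and 994 to 4298 RPM (black), with none of 3 called. The leukocyte list, led by ssc-miR-146a-5p (0.19, limma, adjusted p = 0.744), summed to 2382 to 4860 RPM and 3087 to 5239 RPM, with 1 of 5 called, ssc-miR-142-3p (1.96, limma, adjusted p = 0.0324), and none without S02. Of its names, miR-223 was not analysed here. The adipose and liver list, led by ssc-miR-122, summed to 26.8 to 30.2 RPM and 12.8 to 127 RPM, with none of 2 called. ssc-miR-122 was at 121 RPM in S05 and 8.52 to 28.4 RPM in the others (log2 difference -0.05, adjusted p = 0.973). The melanocyte list held 1 tested miRNA, ssc-miR-204, at 57.7 to 71.1 RPM (white) and 88.5 to 135 RPM (black) (log2 difference 0.82, adjusted p = 0.0804), and miR-211 was not analysed here. The part of any of these cells in the levels of the 6 was not tested.

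**Figure D5:**
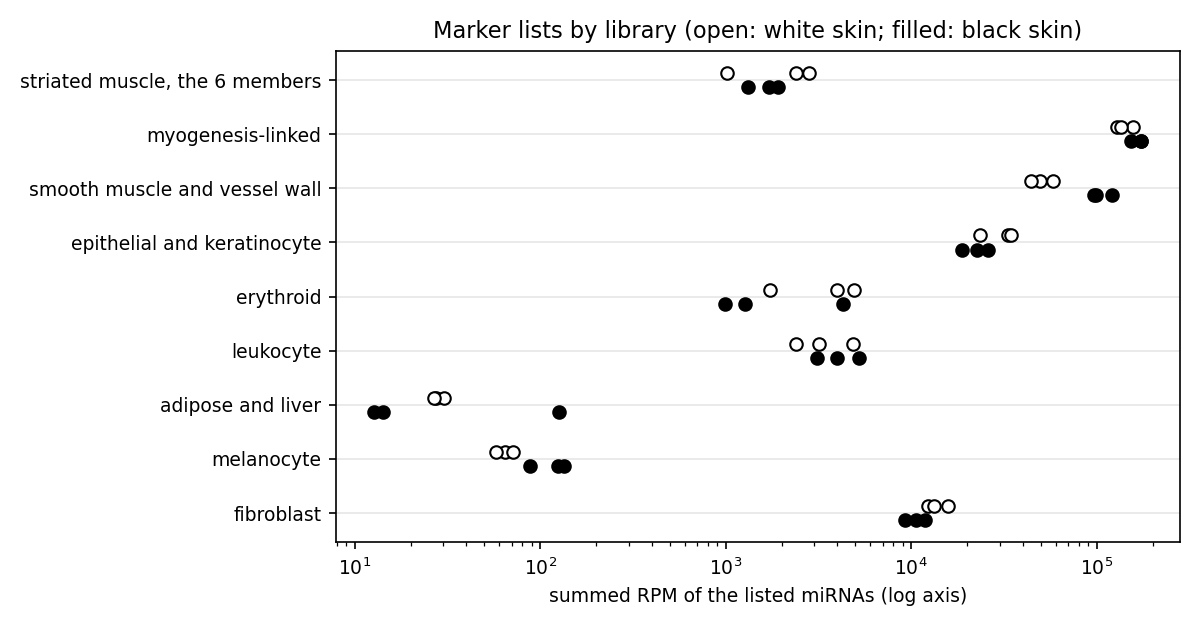
Summed RPM (log axis) of the miRNAs of each marker list (vertical axis) in each library, white skin open and black skin filled. The list of other striated muscle products is not shown. The striated muscle sums (1019 to 2814 RPM) overlap between the groups, while the smooth muscle and vessel wall sums are 44365 to 58091 RPM for white skin and 96227 to 119952 RPM for black.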

How the data were processed

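The authors deposited 1 table of RPM values, as judged by the values, since every library sums to 1e+06. Bowtie and build Sscrofa11.1 are named, without a role, in the submitters' processing notes; no counting tool, miRNA release or filter is given in the sources used here. Whole reads were recovered, since 100% of the values of each library came out whole (tolerance 0.001) when divided by what 1 read is worth, 0.0984 to 0.155 RPM. All 6 value columns were used.

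Libraries were grouped by the skin colour in their titles. The main test was limma 3.58.1 (R 4.3.3) on log2(RPM + 1) with a trended prior variance, over miRNAs that filterByExpr of edgeR 4.0.16 kept (minimum count 10, minimum total 15), with Benjamini-Hochberg adjustment. Ratios were compared with two-sided exact permutation tests (SciPy 1.17.1). Alternatives were TMM and RLE factors, pseudocounts of 0.1 and 10, other filters on low values (none, or 10 RPM in 3 libraries), edgeR, DESeq2 1.42.0 and limma-voom on recovered reads, predicted identifiers left out, ssc-miR-1 as a covariate, and each library left out. The edgeR and DESeq2 calls on recovered reads numbered 30 and 52. The limma script was also run on simulated libraries, and the outcome is not given here, so it lends the calls no support. Precursors of all 6 members were matched by name in a RefSeq gene table of Sscrofa11.1.

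PCR copies of a molecule are counted as separate reads, so the intervals express counting error alone. As RPM are shares of a library, a large change in an abundant miRNA moves the rest. The members and lists were chosen with earlier results of these data known. The text names all 6 members, the called and the most abundant members of each list, and the 3 named miRNAs most like ssc-miR-1 and ssc-miR-206. Other list members with values were chosen after their values were seen.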

Additional observations from a re-analysis of the deposited data

How the results depend on the processing

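Over all miRNAs the 32 calls became 52 with DESeq2 and stayed within 1.5 times in the other 10 settings with all libraries. With 1 library left out they ranged from 7 to 37, with 7 without S05 or S06, 8 without S03, 16 without S04, 19 without S07 and 37 without S02. Among the 6 striated muscle miRNAs the 0 calls became 1, ssc-miR-206, with edgeR, DESeq2, predicted identifiers left out and ssc-miR-1 as a covariate (a use chosen for the members after seeing the data), and 0 to 1 with 1 library left out (1 without S02). Over those fits the difference of ssc-miR-1 ranged from -0.74 to 0.25, that of ssc-miR-133b from -0.031 (without S02) to 0.49, and the log2 ratio of ssc-miR-499-5p to ssc-miR-1 from -0.011 (without S07) to 1.29. The causes were not tested. The other 4 ratios kept their direction in every alternative run. ssc-miR-133b had no value under the filter of 10 RPM. No paired analysis was run, since the labels give no animal by which black and white libraries could be paired. Whether any of them came from the same pig is not known. Depth limits ssc-miR-133b most, at 5 to 25 reads a library.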
